A study of Mus musculus with 12 samples.

Results

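The RIKEN clone symbols that run here from 4930401A07Rik to 4933440N22Rik name mouse genes known from testis cDNA clones, most of which still carry the name of the clone. The table held 731 symbols of this series among 28643. The 525 members described here had a mean FPKM of 1 or more over the 6 RNA-seq libraries, and the other 206 symbols lay below that level. FPKM is a density of sequenced fragments, scaled by the length of the transcript and by the number of mapped fragments in the library. By the GENCODE M21 annotation of GRCm38, 105 members were coding (protein coding) and 417 were noncoding (any other biotype), and 3 were found there under no entry. RefSeq differed in part, with a protein for 7 noncoding members and with 14 coding members listed without one. Members were chosen on their RNA-seq level, so that level is given as a description. It is also the denominator of the polysome ratio.

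Round spermatids, the haploid cells that follow meiosis, were isolated by cell sorting, with cycloheximide present to hold ribosomes in place, from male mice of 8 weeks. The mice descended from C57BL/6 zygotes in which Cas9 had made a frameshift in exon 6 of Igf2bp3, within the first KH domain of this RNA-binding protein. Control mice carried the mutation on a single allele (Igf2bp3+/-, the columns named WT) and knockout mice on both (Igf2bp3-/-). By the study's methods, the knockout males behind its sequencing results were chosen for impaired fertility, so each genotype difference also holds this choice. A wild-type group was not analysed here, so each difference between genotypes is one between heterozygous and homozygous mice. By the study's methods, part of each extract was kept as total input (RNA-seq) and the rest was fractionated on a sucrose gradient. Polysome fractions were taken from it (RNC-seq), which per the labels hold RNAs with 4 or more ribosomes. Each genotype had 3 replicates in each assay, 12 libraries in all.

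Long noncoding RNAs are numerous in the testis, above all in meiotic and post-meiotic germ cells. Round spermatids also store many mRNAs in ribonucleoprotein particles and load them on ribosomes only later, when transcription has ceased. RNA in heavy gradient fractions may be translated, may carry ribosomes on a short reading frame or may sediment with other heavy particles, and RNC-seq does not separate these.

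The members with the highest polysome over input ratios are shown first by sequence, because they include noncoding RNAs beside a coding RNA whose longest open run is also short. For each, the longest run from an ATG to a stop codon in its longest GENCODE M21 transcript is printed 5′ to 3′, with the start and stop codons in capitals. The first 5 belong to noncoding members, and the sixth is the coding member 4930558C23Rik. No value here shows that any of these runs is translated.
4930401A07Rik: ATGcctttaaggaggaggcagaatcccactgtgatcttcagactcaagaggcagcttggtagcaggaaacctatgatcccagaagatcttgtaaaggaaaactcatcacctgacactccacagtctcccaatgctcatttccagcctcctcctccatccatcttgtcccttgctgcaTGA
4930547H16Rik: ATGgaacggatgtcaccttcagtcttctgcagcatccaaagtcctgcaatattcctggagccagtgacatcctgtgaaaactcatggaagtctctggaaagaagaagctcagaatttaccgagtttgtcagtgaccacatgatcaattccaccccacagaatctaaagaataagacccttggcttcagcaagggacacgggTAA
4930553M12Rik: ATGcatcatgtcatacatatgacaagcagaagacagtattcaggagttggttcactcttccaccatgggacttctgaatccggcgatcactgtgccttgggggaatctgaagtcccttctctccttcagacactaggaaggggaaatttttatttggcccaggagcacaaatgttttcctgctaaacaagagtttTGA
4930545L08Rik: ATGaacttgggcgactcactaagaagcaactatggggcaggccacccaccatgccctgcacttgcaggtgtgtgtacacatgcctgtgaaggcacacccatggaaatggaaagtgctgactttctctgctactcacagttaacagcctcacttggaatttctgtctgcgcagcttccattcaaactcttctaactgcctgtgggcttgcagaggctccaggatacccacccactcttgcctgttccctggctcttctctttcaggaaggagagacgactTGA
4930590H14Rik: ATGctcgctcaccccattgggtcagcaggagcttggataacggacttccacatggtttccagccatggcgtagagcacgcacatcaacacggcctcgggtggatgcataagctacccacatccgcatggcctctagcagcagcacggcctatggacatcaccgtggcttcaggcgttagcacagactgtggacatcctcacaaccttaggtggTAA
4930558C23Rik: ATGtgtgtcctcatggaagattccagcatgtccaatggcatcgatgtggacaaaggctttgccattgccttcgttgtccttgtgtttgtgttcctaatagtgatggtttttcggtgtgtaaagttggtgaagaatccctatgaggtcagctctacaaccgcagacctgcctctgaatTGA

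The runs measured 180 bases in 4930401A07Rik (chr10:92401014-92417495, plus strand), 204 in 4930547H16Rik (chr13:69771518-69772632, minus strand), 198 in 4930553M12Rik (chr4:88867233-88868380, minus strand), 282 in 4930545L08Rik (chr9:111912311-111918666, minus strand) and 216 in 4930590H14Rik (chr9:77357352-77357902, plus strand). The run of 4930558C23Rik (chr3:95386461-95402841, minus strand) has 180 bases, and RefSeq lists this gene also as Ctxnd2. Coordinates are those of the whole gene in GRCm38. The first 4 are lincRNA genes, and 4930590H14Rik has the biotype TEC, a class of transcripts that awaits experimental proof of coding, so none has an annotated coding exon or UTR.

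For contrast, the same run is given for 4930515L19Rik (chrX:46267559-46328911, minus strand), an antisense RNA of 3 exons with 174 bases in the run, whose ratio was among the lowest.
4930515L19Rik: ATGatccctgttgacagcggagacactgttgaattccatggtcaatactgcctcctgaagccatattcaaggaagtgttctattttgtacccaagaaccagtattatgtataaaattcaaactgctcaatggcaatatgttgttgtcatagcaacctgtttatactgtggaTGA

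A run of this size was therefore present at both ends of the range. Over the 417 noncoding members the longest run had a median of 213 bases and 84 reached 300, while over the 105 coding members the median was 867 bases and 99 reached 300. The median log2 ratio was 0.55 in the 104 noncoding members with a run under 150 bases and 0.42 in the 229 from 150 to 300. It was 0.12 in the 72 from 300 to 600 and -0.41 in the 12 with longer runs. Of the coding members, 33 from 300 to 600 bases had a median of 0.38 and 66 with longer runs of -0.13. Only 3 coding members had a run under 150 bases (0.87) and 3 one from 150 to 300 (0.03). The ratio also moved with transcript length, as given below, and the part of the run apart from it was not tested.

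Igf2bp3 RNA stood at 38.2, 38.6 and 33.4 FPKM in Igf2bp3+/- and at 31.7, 32.5 and 31.4 in Igf2bp3-/- RNA-seq (log2 difference -0.20, limma adjusted p = 0.335), and a frameshift need not lower it, so this does not check the labels. Between 21490 and 25633 symbols were above 0 in a library, and read depth is unknown because the table holds no counts. The 7 round spermatid markers summed to 850 to 992 FPKM in Igf2bp3+/- and 1015 to 1220 in Igf2bp3-/- RNA-seq, Sertoli cell markers to 1.64 to 1.97 and 2.44 to 2.51, and spermatogonia markers, which overlapped, to 3.19 to 4.06 and 3.04 to 3.50. Leydig cell markers (7 of 7 genes, none at 0 in every library) summed to 15.4 to 22.6 FPKM in Igf2bp3+/- and 48.6 to 55.0 in Igf2bp3-/- RNA-seq, and to 6.75 to 14.3 and 51.5 to 103 in RNC-seq. Macrophage and blood markers (7 of 7) summed to 7.13 to 7.61 and 14.0 to 15.8 in RNA-seq. Endothelial markers (3 of 4) were lower without overlap, at 1.52 to 1.85 and 1.15 to 1.34 FPKM. In RNA-seq, spermatocyte markers summed to 70.6 to 91.1 and 83.2 to 108 FPKM, and peritubular markers to 1.55 to 1.73 and 1.05 to 1.60. Elongating spermatid markers (Prm1, Prm2, Tnp1, Tnp2 and Hils1) summed to 8458 to 10857 and 9515 to 9726 FPKM. The genotypes overlapped in each of these sums. The study measured RNA of the elongating spermatid markers in sorted round spermatids too, so their sum does not mark elongating spermatids alone. Single genes made up much of some sums, with RNA-seq means of 27.1 FPKM for Insl3 (Leydig) and 1.46 for Amhr2 (Sertoli). Hbb-bs and Hba-a1 (macrophage and blood) had means of 4.54 and 3.30. Igf2bp3+/- RNA-seq replicate 3 stood apart. Its median over noncoding members was 1.84 on the log2(FPKM + 0.1) scale, against 2.08 to 2.35 in the other 5 RNA-seq libraries. Over all noncoding genes it was 1.64 against 1.85 to 2.03. Over all coding genes it was the lowest, at 3.24 beside a next lowest of 3.33. The shift was thus not particular to the members. The single gene CT010467.1 took 13.3% of summed FPKM in this library and 5.68% to 9.38% in the other 5. Its part in the shift was not tested.

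The members took 1.41% to 1.80% of the summed FPKM of a library. Coding members had a median RNA-seq level of 15.7 FPKM (range 1.01 to 403) and noncoding members of 4.43 (range 1.01 to 159), and 11 coding and 2 noncoding members exceeded 100. Among all genes at 1 FPKM or more, the medians were 10.1 for 9341 coding and 3.71 for 2765 noncoding genes. Just inside the limit lay 4930558J22Rik, 4933407L21Rik and 4933406P04Rik, each with 1.01 FPKM, and just outside it 4930456L15Rik with 0.985, 4930595D18Rik with 0.979 and 4930535G08Rik with 0.939.

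The highest coding member was 4933411K16Rik, a gene of 1 exon (chr19:42052248-42053627, plus strand). It had 381, 428 and 404 FPKM in Igf2bp3+/- and 394, 392 and 417 in Igf2bp3-/- RNA-seq. In RNC-seq it had 350, 320 and 352 and then 447, 362 and 327 FPKM, where Igf2bp3+/- replicates come first and Igf2bp3-/- replicates after "and then", as in all such series of values that follow. The genotypes overlapped in both assays, and RNC-seq was not called different from RNA-seq (limma adjusted p = 0.133).

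The coding member of second highest level, 4930544G11Rik, a gene of 1 exon, had 219, 231 and 205 FPKM in Igf2bp3+/- and 251, 263 and 267 in Igf2bp3-/- RNA-seq, and 408, 254 and 409 and then 355, 253 and 376 FPKM in RNC-seq. The genotypes did not overlap in RNA-seq (limma adjusted p = 0.219) and overlapped in RNC-seq.

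Some abundant coding members were close in sequence to genes of known function, by a translated BLAST search of the longest run of each against that of other named coding genes. Of 105 coding members, 37 had a hit and 16 had one over at least 50% of the run. 4933415F23Rik, also of 1 exon, matched Ppp1r14b, which encodes an inhibitor of protein phosphatase 1, with 84.5% identity over 97 residues. It had 188, 195 and 178 FPKM in Igf2bp3+/- and 205, 207 and 222 in Igf2bp3-/- RNA-seq. In RNC-seq it had 82.1, 70.7 and 76.0 and then 101, 96.1 and 72.0 FPKM. All its polysome libraries lay below all its input libraries, with a log2 ratio of -1.27 ± 0.10 (SE; limma adjusted p = 2.73e-07). In all, 3 members of 1 exon matched a gene of more exons over at least 50% of the run, and what these members do was not measured.

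4930578I06Rik and 4930579F01Rik, of 5 and 8 exons, completed the coding members of highest level together with 4930558C23Rik. The first had 127, 139 and 123 FPKM in Igf2bp3+/- and 156, 162 and 173 in Igf2bp3-/- RNA-seq, and the second 120, 125 and 108 and then 143, 146 and 168 FPKM. In both the genotypes did not overlap, and neither was called (limma adjusted p = 0.171 and 0.176).

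The highest noncoding member was 4930571K23Rik, a lincRNA gene of 1 exon (chr7:125368861-125371013, plus strand) for which RefSeq lists a protein. It had 149, 174 and 166 FPKM in Igf2bp3+/- and 160, 155 and 152 in Igf2bp3-/- RNA-seq, and 119, 118 and 131 and then 164, 176 and 105 FPKM in RNC-seq. Genotypes overlapped in both assays. 4930589P08Rik, an antisense RNA of 2 exons (chr4:151376470-151379582, plus strand), had 100, 109 and 98.3 and then 133, 136 and 147 FPKM in RNA-seq and 212, 155 and 174 and then 194, 213 and 211 FPKM in RNC-seq. Its RNC-seq libraries were all above its RNA-seq libraries. A further 4 noncoding members, 4930403D09Rik, 4930567K20Rik, 4930406D18Rik and 4930455B14Rik, averaged 54.7 to 96.9 FPKM in RNA-seq and 80.2 to 156 in RNC-seq. Exons of Dock2 on the opposite strand cover 72.4% of 4930403D09Rik, and without a statement on the use of strand the reads of both genes cannot be told apart.

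**Figure D1:**
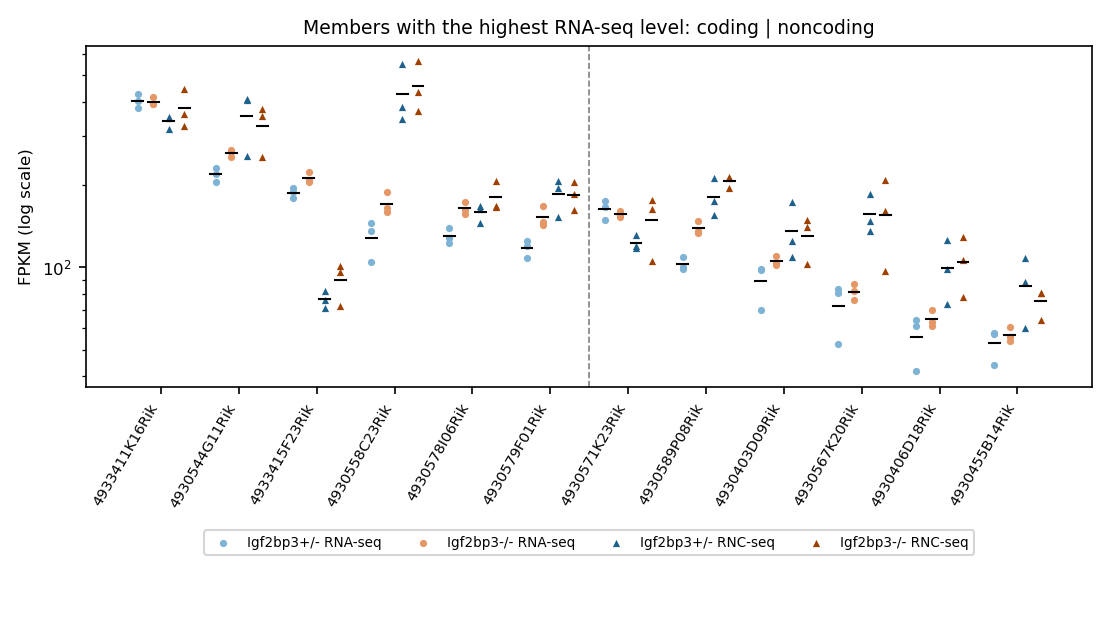
FPKM on a log axis in each library for the 6 coding (left) and 6 noncoding (right) members with the highest mean RNA-seq level. Circles are RNA-seq and triangles RNC-seq libraries (3 per group) and bars are group means, and the RNC-seq values lie below the RNA-seq values in 4933415F23Rik and above them in 4930558C23Rik and 4930589P08Rik.

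The 3 members under no GENCODE entry are listed in RefSeq as synonyms of other symbols and entered neither class. 4930504O13Rik (Lypd9) averaged 77.4 FPKM in RNA-seq and 133 in RNC-seq, 4930563D23Rik (Fam243) 61.2 and 52.3, and 4933413G19Rik (Tex52) 19.0 and 13.3.

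Comparing RNC-seq with RNA-seq asks which RNAs were enriched in the polysome fractions relative to the input. The ratio was taken as log2 of mean RNC-seq FPKM over mean RNA-seq FPKM, so that 0 stands for equal FPKM in both. FPKM is relative to the rest of its library, so the place of 0 depends on composition. CT010467.1 alone took 9.22% to 13.3% of summed FPKM in Igf2bp3+/- RNA-seq and 15.9% to 19.4% in RNC-seq. In Igf2bp3-/- it took 5.68% to 9.25% and 8.14% to 14.6%. Noncoding members had a median of 0.41 (quartiles 0.02 and 0.77) and coding members of 0.03 (quartiles -0.65 and 0.52). In Igf2bp3+/- the medians were 0.46 and 0.05, a distance of 0.41 or 1.33-fold. In Igf2bp3-/- they were 0.36 and -0.01, a distance of 0.38 or 1.30-fold. Over the 9 pairs of an RNC-seq with an RNA-seq library in a genotype, the distance ranged from 0.20 to 0.69 in Igf2bp3+/- and from 0.20 to 0.48 in Igf2bp3-/-, so noncoding members had the higher median in every pair. Members are not replicates, and no p-value is given for this distance.

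More RNC-seq than RNA-seq FPKM was found in 316 of 417 noncoding members and in 55 of 105 coding members. All 6 RNC-seq libraries lay above all 6 RNA-seq libraries in 109 noncoding (26.1%) and 11 coding members (10.5%), and below them in 27 (6.47%) and 19 (18.1%). The whole table showed the same order of classes. All noncoding genes at 1 FPKM or more had a median of 0.40 and all coding genes of -0.16, a distance of 0.56, and libraries did not overlap upwards in 24.0% and 12.9% and downwards in 8.72% and 22.6%. The order is thus not particular to the RIKEN members. Among all genes of the shortest transcripts it was the reverse, as given below with length. The 427 RIKEN symbols of another large testis clone series had a median of 0.63 and the 216 remaining RIKEN symbols of 0.19, which were not tested against the members.

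By a limma test of RNC-seq against RNA-seq over the 12 libraries, with an adjusted p under 0.05 and a log2 ratio of at least 1 in size, 46 noncoding members (11%) were called higher in RNC-seq and 24 (5.76%) lower. Of all genes tested, 7.63% were called higher and 12.8% lower, and of all noncoding genes 15.3% and 8.9%. Among coding members 4 (3.81%) were higher and 16 (15.2%) lower, beside 5.21% and 14.1% of all coding genes. The ratios given with an error are fitted on the log2(FPKM + 0.1) scale, so they differ slightly from ratios of means, and each error of a fitted log2 value is a standard error. Both shares of the noncoding members were below those of their class, and those of the coding members were near theirs.

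**Figure D2:**
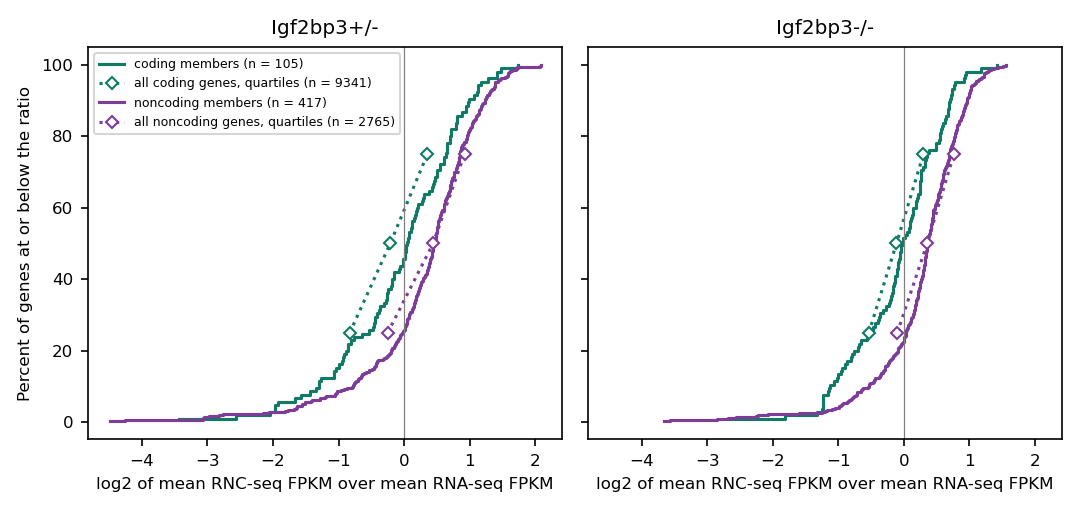
Cumulative percent of genes (vertical axis) at or below a log2 ratio of mean RNC-seq to mean RNA-seq FPKM (horizontal axis) in each genotype. Lines are the 105 coding and 417 noncoding members and diamonds the quartiles of all coding and all noncoding genes, and at the median the noncoding line lies to the right of the coding line by 0.41 in Igf2bp3+/- and 0.38 in Igf2bp3-/-.

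Within the noncoding members the 207 lincRNA genes had a median of 0.50, the 43 processed transcripts of 0.36, the 102 antisense genes of 0.32 and the 37 TEC genes of 0.27. The 4 transcribed unitary pseudogenes, which are former coding genes without a functional copy, had a median of -1.53. Of the 46 noncoding members called higher, 29 were lincRNA and 10 antisense genes. The 25 members on the X chromosome, 15 of them coding, had a median of -0.08. Medians were lower on chromosome 17 (-0.70, 5 members, all noncoding) and chromosome 19 (-0.16, 3 members), and positive on the other chromosomes.

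Transcript length moved with the ratio in both classes. The longest transcript had a median of 1178 bases in noncoding and 1768 in coding members. Spearman's rank correlation between length and ratio was -0.38 over the 417 noncoding and -0.48 over the 105 coding members, a description across genes that share the same 12 libraries, and it was -0.32 and -0.54 over all noncoding and all coding genes. Below 1000 bases, 163 noncoding members had a median ratio of 0.63 and 16 coding members of 0.80. From 1000 to 2000 bases the medians were 0.32 in 177 noncoding and -0.01 in 48 coding members, and from 2000 to 4000 bases 0.08 in 66 and 0.01 in 30. From 4000 bases on they were -0.03 in 11 and -0.99 in 11. Noncoding members thus had the higher median in every range but the shortest, where coding members had it. Over all genes below 1000 bases the medians were 0.59 in 1677 noncoding and 0.78 in 707 coding genes. From 1000 to 2000 bases they were nearly equal, at 0.227 and 0.222. From 2000 to 4000 bases they were -0.09 and -0.19, and from 4000 bases on -0.04 and -0.61. The part of length in the distance between the classes was not tested.

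**Figure D3:**
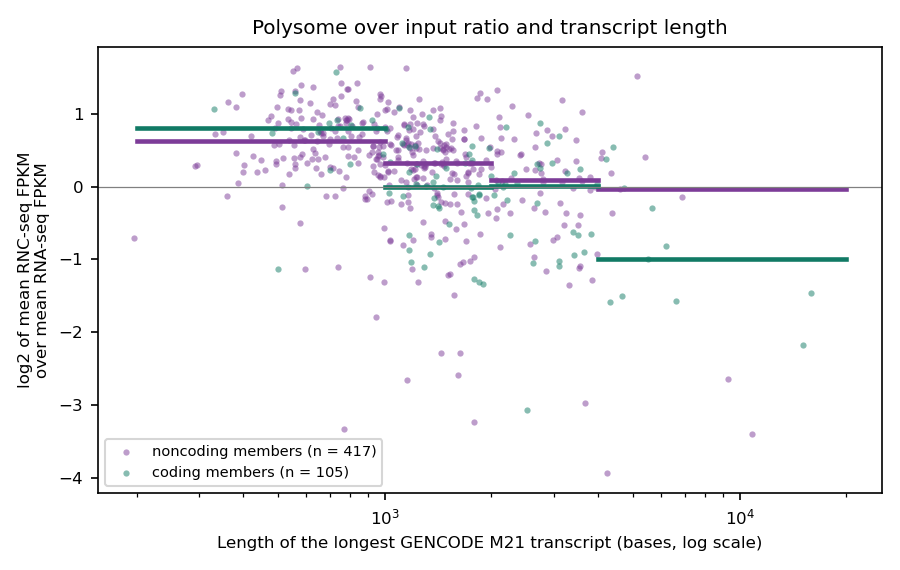
log2 ratio of mean RNC-seq to mean RNA-seq FPKM (vertical axis) against the length of the longest GENCODE M21 transcript on a log axis, with 1 point per member. Horizontal bars are class medians below 1000, from 1000 to 2000, from 2000 to 4000 and from 4000 bases on, and go from 0.63 to -0.03 in noncoding and from 0.80 to -0.99 in coding members.

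Members of 1 exon had a median ratio of 0.20 among noncoding (80 members) and -0.01 among coding (19 members), against 0.44 and 0.04 for those with more exons. From 1 to 3 FPKM in RNA-seq the median was 0.31 in noncoding and 0.05 in coding members, and at 30 FPKM or more it was 0.60 and 0.31. In each of the 4 ranges of level that were looked at, noncoding members had the higher median.

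The highest ratios of noncoding members were near 3-fold. 4930547H16Rik, whose run of 204 bases is printed above, had 27.4, 26.3 and 21.9 FPKM in Igf2bp3+/- and 29.0, 32.5 and 36.8 in Igf2bp3-/- RNA-seq. In RNC-seq it had 118, 73.3 and 82.4 and then 90.9, 64.3 and 112 FPKM. No RNC-seq library overlapped an RNA-seq library, and the log2 ratio was 1.62 ± 0.15 (SE; limma adjusted p = 8.46e-07).

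4930553M12Rik had 8.35, 7.63 and 6.03 and then 9.78, 10.1 and 12.2 FPKM in RNA-seq and 26.4, 21.9 and 23.5 and then 35.9, 24.4 and 34.8 FPKM in RNC-seq, a log2 ratio of 1.62 ± 0.13 (SE; limma adjusted p = 2.8e-07). For 4930590H14Rik the values were 10.9, 11.1 and 7.35 and then 7.78, 7.04 and 7.81 FPKM in RNA-seq and 39.3, 27.8 and 30.2 and then 19.3, 15.9 and 23.8 FPKM in RNC-seq, a log2 ratio of 1.54 ± 0.14 (SE; limma adjusted p = 7.89e-07). The assays did not overlap in either member.

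At lower levels, 4930401A07Rik had 1.19, 1.16 and 0.876 and then 1.28, 1.58 and 1.33 FPKM in RNA-seq and 6.62, 2.85 and 4.08 and then 3.33, 2.55 and 3.64 FPKM in RNC-seq. 4930545L08Rik had 2.06, 1.90 and 1.37 and then 2.18, 2.68 and 2.97 FPKM and, in RNC-seq, 10.3, 6.56 and 5.74 and then 6.34, 3.87 and 7.77 FPKM. The spread between RNC-seq replicates was wide in both, and still each RNC-seq library was above each RNA-seq library. Their log2 ratios were 1.51 ± 0.19 and 1.56 ± 0.19 (SE; limma adjusted p = 1.09e-05 and 9.63e-06).

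Among coding members the highest ratio was that of 4930558C23Rik, with 145, 136 and 104 FPKM in Igf2bp3+/- and 159, 164 and 188 in Igf2bp3-/- RNA-seq. In RNC-seq it had 552, 348 and 384 and then 435, 372 and 564 FPKM. The assays did not overlap, and the log2 ratio was 1.57 ± 0.14 (SE; limma adjusted p = 6.26e-07). The other coding members called higher were 4930415O20Rik (1.31 ± 0.15), 4930522H14Rik (1.06 ± 0.18) and 4931417E11Rik (1.08 ± 0.13), and the last matched Jkamp, which encodes a membrane protein of the endoplasmic reticulum, with 68.2% identity over 176 residues. Their longest transcripts measured 558, 854 and 1095 bases. 4930404H24Rik, of 331 bases, had a fitted log2 ratio of 0.97 ± 0.22 and did not reach the limit of 1.

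At the other end, 4930515L19Rik had 16.8, 13.8 and 14.5 FPKM in Igf2bp3+/- and 14.9, 10.3 and 11.6 in Igf2bp3-/- RNA-seq. In RNC-seq it had 1.73, 0.649 and 1.47 and then 1.51, 1.09 and 1.70 FPKM. Its lowest RNA-seq value was above its highest RNC-seq value, and the log2 ratio was -3.28 ± 0.20 (SE; limma adjusted p = 3.88e-08) in a transcript of 769 bases. 4930431P03Rik had 2.73, 2.77 and 1.66 and then 1.99, 3.21 and 1.57 FPKM in RNA-seq and at most 0.337 in RNC-seq (log2 ratio -3.28 ± 0.26, limma adjusted p = 2.2e-07). Exons of Gm49364 on the same strand cover 82.2% of this member, so its level depends on how reads were divided.

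A pair of unitary pseudogenes that lie near each other on chromosome 7 also had low ratios. 4932431P20Rik (chr7:29524543-29538055, plus strand), with an open run as long as its transcript of 9288 bases, had 19.3, 18.6 and 20.1 and then 15.0, 15.0 and 12.7 FPKM in RNA-seq and 1.73, 2.01 and 3.26 and then 3.33, 3.65 and 2.15 FPKM in RNC-seq (log2 ratio -2.63 ± 0.16, limma adjusted p = 3.88e-08). 4930432E11Rik (chr7:29558579-29582169, plus strand), of 10871 bases, had 2.71, 2.84 and 4.41 and then 2.89, 2.36 and 2.90 FPKM in RNA-seq and 0.0787, 0.120 and 0.243 and then 0.343, 0.661 and 0.265 FPKM in RNC-seq (log2 ratio -3.15 ± 0.23, limma adjusted p = 1.33e-07). In both, no RNC-seq library reached the lowest RNA-seq library. Exons on the opposite strand cover 21.4% of 4930432E11Rik. The lincRNA genes 4930435F18Rik and 4930579C12Rik averaged 1.23 and 2.92 FPKM in RNA-seq and 0.131 and 0.373 in RNC-seq, where the first was listed at 0 in a single library. The second has a near-identical copy, Gm2396 (98.1% identity), and is uncertain for that reason.

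Among coding members, 4932415D10Rik, with a run of 14961 bases, had 14.2, 15.2 and 18.0 and then 13.7, 13.5 and 12.1 FPKM in RNA-seq and 2.33, 2.21 and 3.45 and then 2.95, 5.09 and 3.09 FPKM in RNC-seq (log2 ratio -2.19 ± 0.16, limma adjusted p = 1.15e-07). 4930407I10Rik, with a run of 4539 bases, had 36.1, 37.1 and 43.9 and then 33.1, 35.4 and 31.8 FPKM in RNA-seq and 8.02, 11.0 and 11.8 and then 14.7, 19.7 and 11.6 FPKM in RNC-seq (log2 ratio -1.54 ± 0.14, limma adjusted p = 6.53e-07). In both, every RNC-seq library lay under every RNA-seq library. 4930402H24Rik, of 37 exons, and 4931408C20Rik, which resembled Spata31 over 59 residues, had log2 ratios of -1.61 ± 0.14 and -1.58 ± 0.18. The lowest coding ratio, -2.93 ± 0.24, belonged to 4930467E23Rik, which has 5 near-identical copies (the closest is Gm21119, with 99.6% identity), so its reads may have been split among them.

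**Figure D4:**
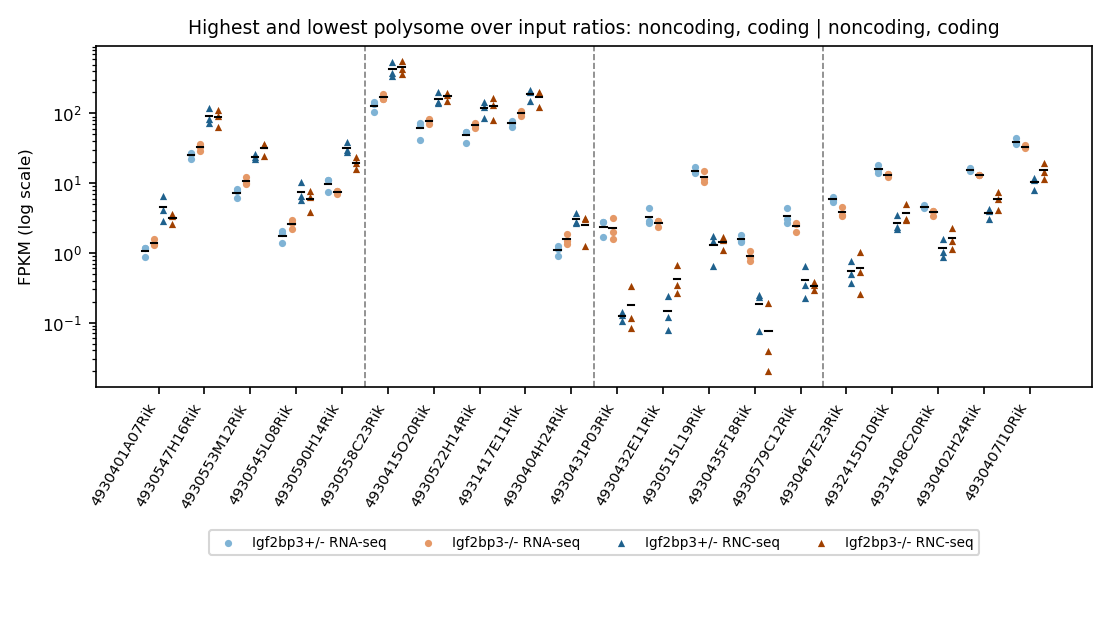
FPKM on a log axis in each library for the 5 noncoding and 5 coding members with the highest ratio (left of the middle line) and the 5 noncoding and 5 coding members with the lowest (right of it). Circles are RNA-seq and triangles RNC-seq libraries (3 per group), bars are group means and a value of 0 is drawn at 0.02, and 4930547H16Rik lies between 21.9 and 36.8 in RNA-seq and between 64.3 and 118 in RNC-seq.

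The comparison of genotypes asks how the members differed where both alleles of Igf2bp3 were mutated. In RNA-seq, 1 of the 525 members passed an adjusted p of 0.05 over the 20352 genes tested, of which 0.256% passed. It was the coding member 4930558K02Rik (chr1:161942086-161979636, minus strand, 7 exons), with 34.0, 40.0 and 29.0 FPKM in Igf2bp3+/- and 58.5, 65.5 and 66.1 in Igf2bp3-/-. The groups did not overlap, and its level rose, with means of 34.4 ± 5.51 and 63.4 ± 4.23 FPKM (SD, n = 3) and a log2 change of 0.89 ± 0.12 (SE; limma adjusted p = 0.0353). In RNC-seq it had 72.4, 45.3 and 72.5 and then 75.3, 121 and 118 FPKM, without overlap and with a limma adjusted p of 0.735. The RNA-seq call was lost without Igf2bp3+/- replicate 1 and without each Igf2bp3-/- replicate in turn, with limma adjusted p-values of 0.120 to 0.201. It was also lost with the replicate number as a block (limma adjusted p = 0.140), with all 12 libraries in 1 fit (0.224) and with no filter on low FPKM (0.0621). In bulk libraries fewer cells of a type and less RNA per cell cannot be told apart. The sums of Leydig cell, blood, Sertoli cell and round spermatid markers were higher in the same Igf2bp3-/- libraries, and that of endothelial markers was lower. The part of these differences in the result was not tested.

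At an unadjusted p under 0.05, 78 members were higher and 21 lower in Igf2bp3-/- RNA-seq, or 18.9% of the members against 15.7% of all genes. The median log2 change was 0.14 over the members and 0.05 over all genes. The genotypes did not overlap in 97 members that were higher (18.5%) and 29 that were lower (5.52%), beside 14.1% and 8.68% of all genes. Higher without overlap were 35 of 105 coding (33.3%) and 61 of 417 noncoding members (14.6%), beside 16.9% of all coding and 7.94% of all noncoding genes tested, which include genes of lower level than the members. Without Igf2bp3+/- replicate 3, the library that stood apart, 101 members (19.2%) were higher and 90 (17.1%) lower, beside 17.2% and 16% of all genes, and the median change was 0.03. Fewer libraries also make non-overlap more frequent, and in this setting the shares of all members together were near those of all genes. By class, 35 coding members (33.3%) were still higher and 16 (15.2%) lower. Of the noncoding members 65 (15.6%) were higher and 74 (17.7%) lower. Shares over all coding and all noncoding genes were not computed in this setting.

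The members next to 4930558K02Rik in the test were not called. 4930596D02Rik, a coding member that matched Ralgds, a gene for a guanine nucleotide exchange factor, over 66 residues, had 34.3, 34.0 and 28.6 FPKM in Igf2bp3+/- and 46.4, 45.8 and 55.0 in Igf2bp3-/- (log2 difference 0.60 ± 0.11, limma adjusted p = 0.112). 4933405O20Rik, which matched Idh3g, a subunit gene of mitochondrial isocitrate dehydrogenase, over 160 residues, had 55.6, 60.2 and 49.9 and then 70.2, 83.4 and 89.4 FPKM (log2 difference 0.55 ± 0.12, limma adjusted p = 0.146). 4931417E11Rik had 72.0, 78.9 and 64.9 and then 91.5, 101 and 110 FPKM (limma adjusted p = 0.148). In these 3 and in the antisense gene 4930589P08Rik, whose values are given above, all Igf2bp3-/- libraries were above all Igf2bp3+/- libraries.

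In the other direction, 4930434O05Rik, a lincRNA of 387 bases, had 2.27, 2.33 and 2.13 FPKM in Igf2bp3+/- and 1.03, 1.12 and 0.624 in Igf2bp3-/- RNA-seq and 2.45, 2.05 and 1.94 and then 0.912, 1.19 and 1.26 FPKM in RNC-seq. The genotypes did not overlap in either assay, with log2 differences of -1.23 ± 0.22 and -0.88 ± 0.27 (SE; limma adjusted p = 0.102 and 0.632). 4932431P20Rik, 4930467E23Rik, 4930435F18Rik and 4933407I08Rik also had every Igf2bp3-/- RNA-seq library below every Igf2bp3+/- library, with log2 differences from -0.74 to -0.44 and limma adjusted p-values of 0.157 to 0.176. Exons on the opposite strand cover 36.3% of 4933407I08Rik.

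**Figure D5:**
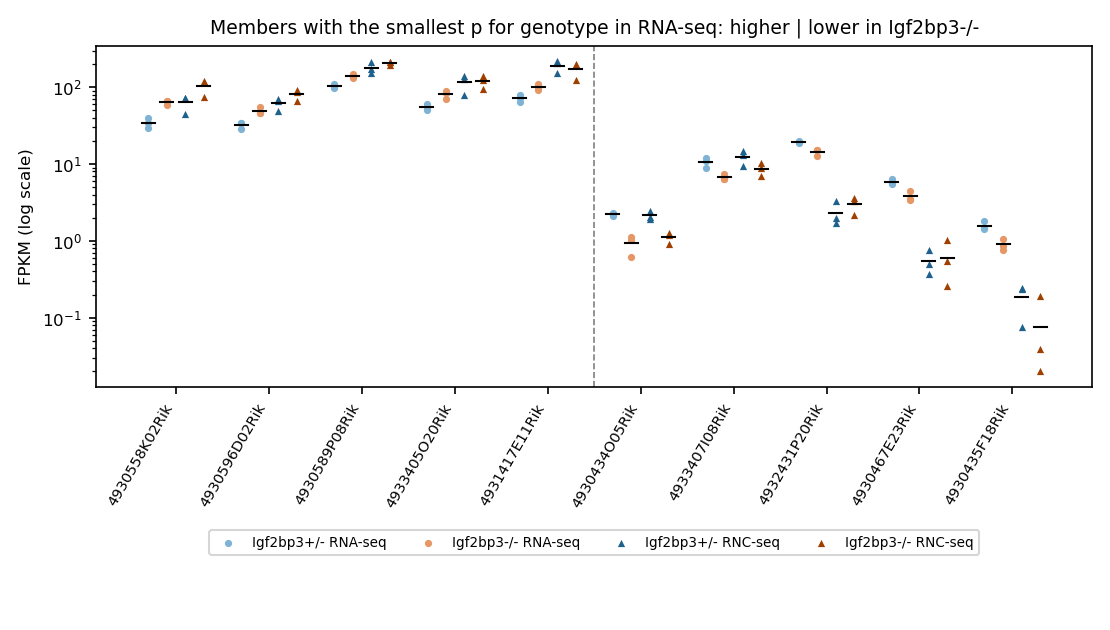
FPKM on a log axis in each library for the 5 members with the smallest p in each direction of the RNA-seq genotype test, higher (left) and lower (right) in Igf2bp3-/-. Circles are RNA-seq and triangles RNC-seq libraries (3 per group), bars are group means and a value of 0 is drawn at 0.02, and only 4930558K02Rik, between 29.0 and 40.0 in Igf2bp3+/- and between 58.5 and 66.1 in Igf2bp3-/- RNA-seq, passed an adjusted p of 0.05.

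In RNC-seq, 0 of the 525 members passed the limma test at an adjusted p of 0.05, where 0.115% of 19051 genes did, and before adjustment 16 were higher and 6 lower with p under 0.05, or 4.19% of the members against 6.48% of all genes. The genotypes did not overlap in 35 members that were higher (6.67%) and 9 that were lower (1.71%), beside 9.44% and 1.85% of all genes. The median log2 difference was 0.07 over the members and 0.13 over all genes, and -0.04 over the members with each library centred on its median, so its direction depended on the scaling. 4930590J08Rik, a coding member of 20 exons, had 11.3, 14.0 and 15.8 FPKM in Igf2bp3+/- and 21.4, 38.8 and 19.3 in Igf2bp3-/- (limma adjusted p = 0.643). 4930519F09Rik, a transcribed processed pseudogene, had 3.02, 2.11 and 2.87 and then 0.538, 0.518 and 1.57 FPKM (limma adjusted p = 0.363). The groups were apart in both, the first higher and the second lower in Igf2bp3-/-.

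The lincRNA 4930478P22Rik had 19.9, 18.2 and 18.9 and then 13.0, 12.8 and 11.8 FPKM in RNC-seq (limma adjusted p = 0.689), again without overlap. 4933440N22Rik had the largest fitted difference, with 0, 1.09 and 0.133 and then 1.89, 0.974 and 1.63 FPKM. Its groups overlapped, and its Igf2bp3+/- replicates were far from each other. 4931413K12Rik and 4930421P07Rik had group means of 22.4 and 35.4 and of 2.09 and 3.58 FPKM in Igf2bp3+/- and Igf2bp3-/-, and 4930590H14Rik and 4930570N18Rik of 32.4 and 19.7 and of 3.96 and 2.28. None of these was called.

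The difference between genotypes in the RNC over RNA ratio was tested as an interaction over the 12 libraries. Of the 525 members 0 passed the limma test at an adjusted p of 0.05, beside 0.00543% of 18414 genes, and at an unadjusted p under 0.05, 21 were higher and 11 lower in Igf2bp3-/-, or 6.10% of the members against 7.13% of all genes. The median of this difference was -0.06 over the members and 0.06 over all genes, and it was 0.01 over the members with limma library weights, so its direction depended on the setting. The smallest p belonged to 4930444M15Rik, a lincRNA with 8.70, 6.71 and 5.44 FPKM in Igf2bp3+/- and 5.37, 3.63 and 5.01 in Igf2bp3-/- RNA-seq and 2.31, 2.33 and 2.07 and then 3.27, 3.60 and 3.48 FPKM in RNC-seq. The genotypes did not overlap in either assay and differed in opposite directions, and the log2 ratio was -1.64 in Igf2bp3+/- and -0.43 in Igf2bp3-/- (limma adjusted p = 0.686).

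Other members with small p in this test were 4933426K07Rik, with log2 ratios of -0.45 in Igf2bp3+/- and 0.89 in Igf2bp3-/-, and 4930590J08Rik, with -1.26 and -0.14. 4930402H24Rik had -2.05 and -1.16, and 4930432E11Rik -4.49 and -2.68. In the other direction, 4930568E12Rik had 1.39 and 0.42, 4930551O13Rik 0.70 and -0.29, and 4930467D21Rik 1.59 and 0.44. 4930500F10Rik, with 1.03 and 0.35, is covered over 38.0% by exons of Alas1 on the opposite strand. Each had a limma adjusted p of 0.686, the lowest among the members.

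Overlaps and copies limit some of these values. Exons of another gene on either strand touched 97 noncoding and 33 coding members, 83 noncoding and 18 coding members started within 1000 bases of a coding gene on the opposite strand, and 18 members had a near-identical copy (95% identity or more across 50% or more of the transcript). Among members without exon overlap, the noncoding and coding median ratios were 0.49 and 0.04 in Igf2bp3+/- and 0.40 and -0.05 in Igf2bp3-/-. With classes taken from RefSeq instead, 313 members without and 83 with a protein had medians of 0.45 and 0.07 in Igf2bp3+/-. In Igf2bp3-/- these medians were 0.38 and -0.01.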

How the data were processed

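Round spermatids of Igf2bp3+/- and Igf2bp3-/- mice were measured by RNA-seq and RNC-seq, with 3 replicates in each of 4 groups taken from the sample titles. Per the labels and the study's methods, poly(A) RNA was sequenced, and reads were trimmed with Trim Galore 0.6.6, aligned to GRCm38 with HISAT2 and assembled with StringTie 2.1.7 (CASAVA 1.8 is also listed in the submitters' processing notes). The labels name a directional kit and the methods another library type, and the use of strand and the annotation release are not given in the sources used here. The deposited values are FPKM per gene, normalized by the authors, so read depth is unknown and no counting interval is given. Of 28668 rows, 25 whose symbols had turned into dates were left out.

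The log2(FPKM + 0.1) values entered limma models (limma 3.58.1, R 4.3.3; eBayes with trend, two-sided, Benjamini-Hochberg over all genes tested, limit 0.05), so fold changes of low genes are understated. Genes with a mean FPKM above 0.1 in the assay fitted were kept, and all 525 members passed. RNA-seq and RNC-seq were each fitted on 6 libraries, and the ratio and its interaction with genotype on 12. RNC-seq against RNA-seq was tested among genes at 1 FPKM or more in RNA-seq and called from an absolute log2 ratio of 1. The fit was tested on simulated data. GENCODE M21 gave biotype, position, length and sequence for 522 members by symbol, and 396 were found in the RefSeq table. Copies and related genes were searched with BLAST 2.17.0. By the study's methods cells were taken from each mouse and replicates are biological, and p-values measure the spread between these samples.

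The members and lists were chosen with earlier results of these data known. Named were, in each class, the 6 members of highest RNA-seq level and the 5 of highest and of lowest ratio, for each genotype comparison every called member and the 5 of smallest p in each direction, the 3 symbols on either side of the limit, and members whose overlap or missing annotation bears on a value. The alternatives were another pseudocount, no filter, other scalings, library weights, a replicate block, joint fits, other limits and leaving out each library.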

Additional observations from a re-analysis of the deposited data

How the results depend on the processing

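The number of members called for genotype in RNA-seq was 1. It was 0 with no filter on low FPKM, 0 with all 12 libraries in 1 fit and 0 at an unadjusted p under 0.05 and an absolute log2 change over 1.5, and 2 with libraries centred on their median, where 4930596D02Rik joined 4930558K02Rik. It ranged from 0 to 1 when each library was left out. In RNC-seq and in the ratio 0 members were called by adjusted p, also with each library left out, and at those unadjusted limits 2 passed in RNC-seq (4933440N22Rik and 4930519F09Rik) and 1 in the ratio (4933440N22Rik). The study's texts word the limit in 2 ways, and with log2 of 1.5 in place of 1.5, chosen after seeing the data, 22, 19 and 27 members passed in RNA-seq, RNC-seq and the ratio (4.19%, 3.62% and 5.14%, beside 5.45%, 5.78% and 6.55% of all genes). By the methods input and polysome fractions came from 1 extract, but the labels do not say that numbers match between assays, and deviations of RNA-seq libraries and of the RNC-seq libraries sharing their number correlated with r from -0.11 to 0.24, over 0.1 in 4 of 6 pairs, so pairing was not established. With the replicate block 0 members were called in RNA-seq, RNC-seq and the ratio (48 against 32 at an unadjusted p under 0.05 in the ratio), and RNC over RNA calls were 4 higher and 16 lower in coding and 47 higher and 24 lower in noncoding members. RNC over RNA calls with no minimum ratio were 33 higher and 31 lower in coding and 207 higher and 59 lower in noncoding members. With a pseudocount of 1 they were 28 higher and 13 lower in noncoding members. With each library left out they ranged from 3 to 6 and 13 to 18 in coding and from 35 to 57 and 23 to 28 in noncoding members. The ratio of 4930578I06Rik was reversed under quantile normalization, at -0.012 against 0.21. The distance between the class medians ranged from 0.32 to 0.50 in Igf2bp3+/- and from 0.30 to 0.43 in Igf2bp3-/- with each library left out. Members lower in Igf2bp3-/- RNA-seq without overlap went from 29 to 90 without Igf2bp3+/- replicate 3, an alternative chosen after seeing the data. Except where fewer samples or another limit define the setting, the cause was not tested. FPKM without counts does not show what depth limits.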
